A study of Homo sapiens with 30 samples.

Results

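The broadest stretches of open chromatin in LNCaP cells treated with 10 nM R1881, a synthetic androgen, were examined as a set of 447 regions. They were chosen from the peak list of 1 library, 10 nM replicate 3, which held 144458 distinct spans on chromosomes 1 to 22 and X. A span became a member when it was at least 2000 bp wide and overlapped a span of at least 2000 bp in both other 10 nM libraries. Of the 570 spans that reached 2000 bp in replicate 3, 123 were not matched in this way. Width at 10 nM in LNCaP chose the members, so every LNCaP value at 10 nM below is a description and was not tested.

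ATAC-seq marks open DNA by the cuts of the Tn5 transposase, and a peak is a stretch where cuts pile up. Most peaks are short, because a single nucleosome-free site is short. Wide peaks arise in general where several such sites lie close together, as at promoters of highly transcribed genes, at divergent promoters that fire in both directions, and at clustered enhancers. The androgen receptor is a hormone-activated transcription factor that binds largely at enhancers away from start sites, and FKBP5, TMPRSS2 and the kallikrein genes are among its best known targets in prostate cells.

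LNCaP and VCaP are established, androgen-responsive human prostate cancer cell lines, and in VCaP the TMPRSS2 gene is fused to ERG. Cells of every group were kept for 48 hours in 8% serum stripped of steroids with charcoal, and then treated for 24 hours. The LNCaP groups were vehicle and 0.03, 0.06, 0.1 and 10 nM R1881, and the VCaP groups were vehicle and 0.01, 0.03, 0.06 and 10 nM. Each of the 10 groups held 3 libraries, numbered 3, 4 and 5 in LNCaP and 1, 2 and 4 in VCaP. Nothing in the labels says that these came from separate cultures, so p-values measure the spread between these libraries, which may be technical. The lists held 104726 to 223139 entries on the chromosomes used, and reads per library are unknown. A background pileup recovered from the lists, which tracks depth, was 3.06 to 5.26 in LNCaP. Replicates 1 and 2 of the VCaP vehicle group had 1.14 and 1.09, below the range of 1.78 to 2.74 for the remaining VCaP libraries. Peaks lay within 1 kb of a gene end for 10 of 10 luminal and prostate markers in every LNCaP library and for 9 or 10 in VCaP. The same held in LNCaP for 2 to 4 of 6 basal, 3 to 5 of 6 immune, 4 or 5 of 7 stromal and 6 or 7 of 7 neuroendocrine markers. In VCaP it held for 1 to 4, 2 to 5, 3 to 5 and 6 or 7 of these.

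Most members held a gene start, and 4 promoter sequences are shown as examples. They are the 250 bases before an annotated start site that lies inside a member, from RefSeq on GRCh38.p14, written 5′ to 3′ on the gene's strand. CDKN2C, a cell cycle inhibitor, stands for members that were broad in every library of both lines. HEXIM1, an inhibitor of transcription elongation, is a wide member with several promoter motifs. VPS26B, a retromer subunit, starts in a member that ranked lower with 10 nM in VCaP. TNK2-AS1, an antisense RNA of the kinase gene TNK2, starts in the member whose width changed most clearly with low doses. HEXIM1 and this set of 4 were chosen after their values were seen. Capitals mark matches on either strand to GGGCGG (the GC box), to CCAAT (bound by NF-Y), to CCGGAAG (an ETS factor motif), to TGACGTCA (the cyclic AMP response element), to TATAAA (the TATA box) or to AGAACA (the half-site of the androgen receptor).
CDKN2C: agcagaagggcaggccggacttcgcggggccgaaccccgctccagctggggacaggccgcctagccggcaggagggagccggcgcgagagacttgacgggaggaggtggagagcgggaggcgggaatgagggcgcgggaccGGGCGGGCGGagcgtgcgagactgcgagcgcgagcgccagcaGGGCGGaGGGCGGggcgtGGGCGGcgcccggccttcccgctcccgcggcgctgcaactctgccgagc
HEXIM1: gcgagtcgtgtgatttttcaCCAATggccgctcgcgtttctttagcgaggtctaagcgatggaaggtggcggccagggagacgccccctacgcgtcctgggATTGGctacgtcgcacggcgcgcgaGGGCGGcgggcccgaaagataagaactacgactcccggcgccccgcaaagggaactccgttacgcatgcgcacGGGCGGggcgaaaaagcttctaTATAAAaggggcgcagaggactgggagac
VPS26B: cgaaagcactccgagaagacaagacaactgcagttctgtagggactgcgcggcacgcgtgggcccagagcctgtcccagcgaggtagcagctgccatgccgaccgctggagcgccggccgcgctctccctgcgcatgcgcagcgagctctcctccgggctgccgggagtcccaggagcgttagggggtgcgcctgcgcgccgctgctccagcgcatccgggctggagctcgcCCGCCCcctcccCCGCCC
TNK2-AS1: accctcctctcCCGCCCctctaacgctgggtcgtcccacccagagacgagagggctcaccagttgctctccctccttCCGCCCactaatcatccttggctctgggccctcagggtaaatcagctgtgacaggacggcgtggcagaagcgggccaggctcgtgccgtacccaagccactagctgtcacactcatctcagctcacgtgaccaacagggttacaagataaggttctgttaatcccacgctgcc

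The CDKN2C stretch (chr1:50968456-50968705, plus strand) held 5 GC boxes and 77.2% G and C. HEXIM1 (chr17:45148225-45148474, plus strand) held 2 GC boxes, 2 CCAAT boxes and 1 TATA box. VPS26B (chr11:134224421-134224670, plus strand) and TNK2-AS1 (chr3:195907826-195908075, plus strand) held 2 GC boxes each, at 72.4% and 60% G and C. The TNK2-AS1 stretch had a ratio of observed to expected CpG of 0.559, against 0.989 in CDKN2C. None of the 4 held the androgen receptor half-site.

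Across all 571 start sites inside members, which belong to 439 genes, the upstream 250 bases had a median of 67.2% G and C and a CpG ratio of 0.869. Start sites in other spans of the same list had medians of 65.6% and 0.820, and those in no span 49.2% and 0.260. A GC box was found in 71.3% of the members' stretches, 66.4% of those in other spans and 42.7% of all stretches of this length. The TATA box was found in 5.95% of the members' stretches, 5.09% of those in other spans and 10.7% of all. An androgen receptor half-site was found in 4.73%, 7.38% and 12.4%. The palindrome of this half-site and its reverse complement, 3 bases apart, was found in none of the members' stretches and in 0.00286% of all. CCAAT boxes were found in 26.4% of members' stretches, 33.2% of those in other spans and 32.0% of all. For ETS motifs the shares were 9.28%, 14.9% and 8.52%. These are matches of letters and not bound sites, and start sites of 1 gene share sequence.

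Most members lay on gene starts. Chromosome 8 had no start-site entries here, which left 426 members to class, and 300 of them (70.4%) contained an annotated start site. The share was 8.64% over all spans of the list, 4.29% under 1000 bp, 37.3% from 1000 up to 1500 bp and 56.7% from 1500 up to 2000 bp. Starts of at least 2 genes fell in 30.3% of members, against 1.92% of all spans and 21.4% of those from 1500 up to 2000 bp. Starts on both strands fell in 28.9%, against 1.82% and 20.5%. HECTD3 with UROD, CEP57 with FAM76B, and ALG5 with EXOSC8 are such pairs. In all, 424 different genes were nearest to a member, and 10 members had no protein-coding gene within 100 kb.

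Genes for short, heavily transcribed RNAs were also found in members. A tRNA gene lay in 14 members (3.13%), against 0.175% of all spans and 1.06% of those from 1500 up to 2000 bp. The member at ANG and RNASE4 (chr14:20681281-20684618), which are secreted ribonuclease genes, held 3 tRNA genes and was 3338, 3383 and 3502 bp wide in LNCaP at 10 nM. It was 3356, 3481 and 2799 bp wide with vehicle. The member beside CTC1 (chr17:8220169-8223512), a telomere replication gene, held 4 tRNA genes and was 3344, 3382 and 3418 bp wide at 10 nM and 3210, 3283 and 2144 bp with vehicle. Both were thus wide in most libraries with and without androgen. Histone genes lay in 4 members, among them H2BC5 with H1-4 (chr6:26156106-26159532), 3427, 3786 and 3739 bp wide at 10 nM and 2205, 3303 and 3352 bp with vehicle.

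**Figure D1:**
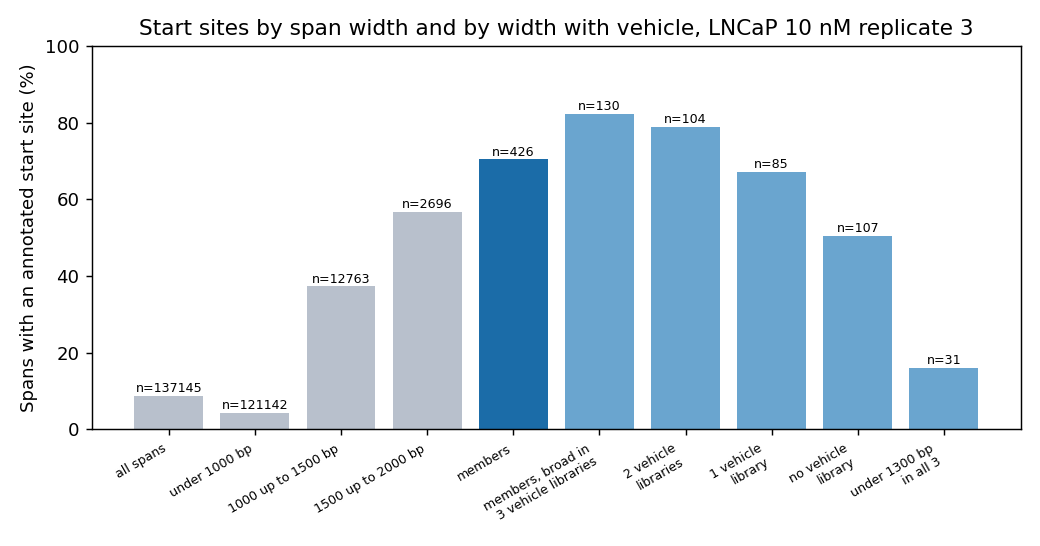
Share of spans of the LNCaP 10 nM replicate 3 list that contain an annotated start site (percent, y axis), by span width (grey), for all members (dark blue), and for members by the number of vehicle libraries in which they were 2000 bp or wider (light blue), with the last bar for members under 1300 bp in every vehicle library. The share is 70.4% for members, 82.3% for those broad in all 3 vehicle libraries and 16.1% for those under 1300 bp in each; n is the number of spans outside chromosome 8.

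Summits, the local maxima that the peak caller reported within a span, numbered 1 to 9 per member in 10 nM replicate 3, with a mean of 3.51. The mean was 1.15 over all spans and 2.38 in spans from 1500 up to 2000 bp. A single summit was reported in 3 members, 2 to 4 in 368 and 5 or more in 76. The median width was 2218 bp in replicate 3, from 2000 to 4521 bp, and the members together covered 1031.6 kb. The widest, chr21:8989810-8994330, had no protein-coding gene within 100 kb. It was 4521, 2910 and 3319 bp wide at 10 nM and 4409, 3390 and 1775 bp with vehicle. Within 50 bp above the width threshold lay 57 members, with a median vehicle width of 1890 bp, and 68.5% of them held a start site. Within 50 bp below it lay 105 spans, with 1719 bp and 69%.

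Almost every member was already open without androgen. A listed peak was present in all 3 LNCaP vehicle libraries at 440 of 447 members, after each list was shortened to the same number of entries. That is 98.4% of members, against 43.4% of all spans and 94.3% of those from 1500 up to 2000 bp. The median width with vehicle was 2026, 2025 and 2033 bp, against 2218, 2388 and 2396 bp at 10 nM. Width is that of the widest single peak, so a region split into several peaks reads as narrow. In the shortened lists, 99, 74 and 129 members lay in 2 or more peaks with vehicle, against 0, 3 and 5 at 10 nM. Peaks with vehicle covered a median of 92.3%, 93.0% and 91.7% of a member's length. Whether gains in width joined separate peaks or extended 1 peak was not tested. Members reached 2000 bp at 237, 243 and 239 regions with vehicle. Counts were 264, 240 and 326 at 0.03 nM, 315, 294 and 412 at 0.06 nM, and 295, 292 and 421 at 0.1 nM. The replicate 5 libraries were the highest at each low dose, and they held more spans of 2000 bp or more in general: 855, 1476 and 1540 at 0.03, 0.06 and 0.1 nM, against 352 to 513 in the other low-dose libraries. The part of this difference in the members' counts was not tested.

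**Figure D2:**
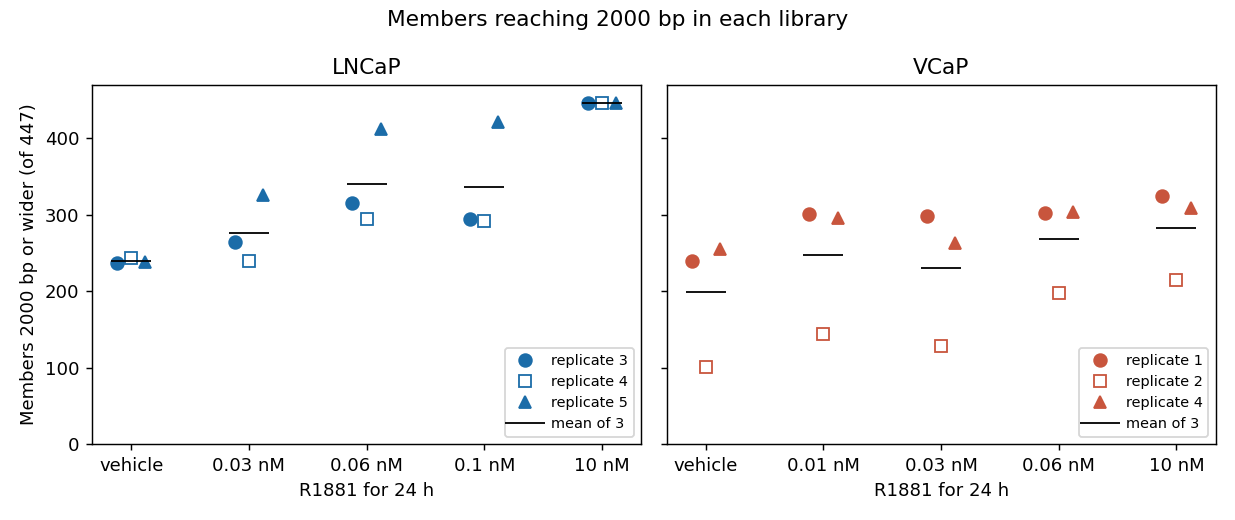
Number of the 447 members that were 2000 bp or wider (y axis) in each library, by dose of R1881 (x axis), in LNCaP (left) and VCaP (right); symbols mark replicate numbers and bars the mean of 3. The 3 LNCaP 10 nM libraries are at 447 by the choice of members, the 3 LNCaP vehicle libraries lie at 237 to 243, and replicate 2 is the lowest VCaP library in every group.

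Applying the same rule to the other groups gave 163 spans with vehicle in LNCaP, 201 at 0.03 nM, 311 at 0.06 nM and 271 at 0.1 nM. Of the 163 vehicle spans, 140 (85.9%) overlapped a member, which is 31.3% of the members. In VCaP the rule gave 209 spans with vehicle, 328, 304 and 536 at 0.01, 0.03 and 0.06 nM, and 569 at 10 nM. At 10 nM in VCaP, 195 of these overlapped a member, 34.3% of the VCaP spans and 43.6% of the members.

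A member's strength was taken as its rank, the percentile of its −log10 p within its library, where 100 is the strongest entry and 0 means not listed. The median rank of members was 91.3, 91.7 and 90.2 with vehicle and 90.2, 87.5 and 86.0 at 10 nM, high in both groups. Over all spans of the list, the medians were 34.2, 33.8 and 0 with vehicle and 41.0, 40.2 and 38.8 at 10 nM. Spans from 1500 up to 2000 bp had a median of 88.4 in 10 nM replicate 3, near the members' 90.2 there. In VCaP the members' medians were 84.4 to 88.0 over the 15 libraries.

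Members that were broad without androgen formed a constitutive group. In LNCaP, 140 members were 2000 bp or wider in all 3 vehicle libraries, 105 in 2, 89 in 1 and 113 in none. A start site lay in 82.3%, 78.8%, 67.1% and 50.5% of these classes. In every LNCaP library 103 members were broad, and 27 were broad in all 30 libraries. The member at CDKN2C (chr1:50968094-50970270) was 2155 to 2312 bp wide over the LNCaP libraries and 2095 to 2204 bp over the VCaP libraries, and its widths overlapped between all groups. Others of these 27 include LMNB1, a nuclear lamin, CCNG2, an atypical cyclin, NAA50, an acetyltransferase subunit, YWHAZ, a 14-3-3 protein, and PEG3, an imprinted gene. The member over the 5′ end of TMPRSS2 (chr21:41506394-41508773), a prostate protease gene, was among them too, at 2168, 2475 and 2373 bp with vehicle and 2380, 2740 and 3016 bp at 10 nM.

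**Figure D3:**
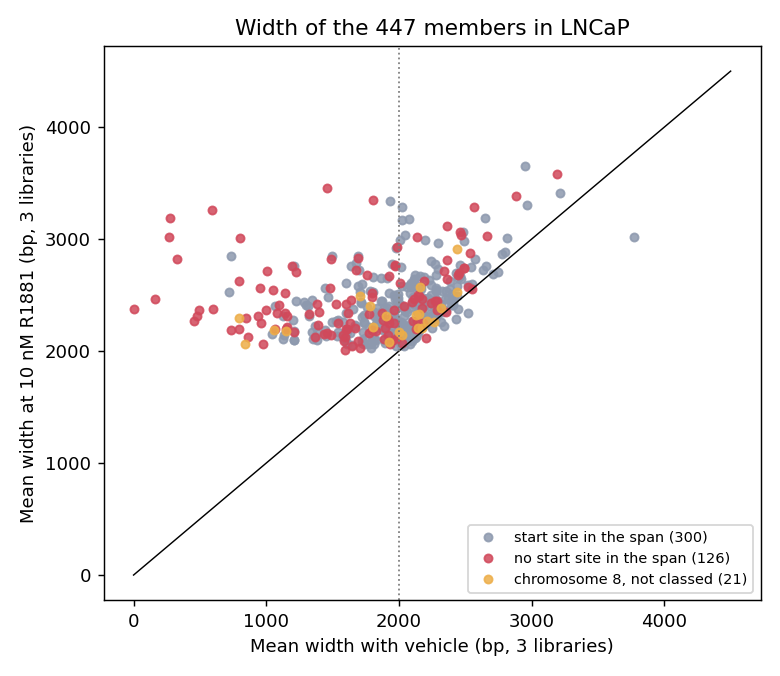
Mean width of each member in LNCaP with vehicle (x axis, bp) and at 10 nM R1881 (y axis, bp), each over 3 libraries; grey points contain a start site, red points do not, and yellow points lie on chromosome 8 and were not classed. The diagonal marks equal width and the dotted line 2000 bp; most points lie near 2000 bp on both axes, and the points far to the left are mostly without a start site.

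Whether low doses changed the members was tested in the 12 LNCaP libraries that had no part in choosing them, over all 112546 spans with a peak in at least 3 of them. By limma with Benjamini-Hochberg adjustment, 12 of 447 members (2.68%) ranked higher at low doses than with vehicle, against 7.7% of all spans. Lower ranks were called at 2 members (0.447%), against 1.2% of all spans, or 8.9% in either direction. Wider peaks were called at 19 members (4.25%), against 4.92%, and a narrower one at 1, against 0.0658% (4.98% in either direction). More summits were called at 6 members (1.34%), against 2.39%, and fewer at 0, against 0.0628% (2.45% in either direction). The narrower one was HECTD3, a ubiquitin ligase gene, at −0.30 ± 0.08 (SE, log2 scale; limma adjusted p = 0.0473), and 11 of the 12 libraries each ended that call when left out. The share of wider peaks lay near that of all spans, and under the replicate block and several leave-outs, such as vehicle replicate 5, it lay above. It lay below with entries of a −log10 q of at least 5, at 22 members, against 7411 of 96056 spans. It also lay below with widths divided by each library's median span width. The median rank difference was −0.27 points over members and 0.63 over all spans, and the median width difference 0.10 and 0.20 on the log2 scale. With ranks by fold enrichment in place of −log10 p, 1 member was called higher and 2 lower, against 8312 and 886 of 112546 spans. With entries of a −log10 q of at least 5 it was 17 and 0, against 9527 and 68 of 96056 spans. With all deposited peaks, it was 15 and 0, against 9665 and 325 of 120974 spans. Without replicate 5 of every group, 17 members ranked higher and 3 lower, against 9108 and 2529 of 105903 spans. In the same setting 9 were wider and 2 narrower, against 2044 and 73 of 105904 spans. Without replicate 3 or 4, 3 members ranked higher and 0 lower each time. Over all spans it was 3184 and 64 of 104210 without replicate 3, and 3179 and 44 of 105319 without replicate 4. The number of width calls was 10 without 0.06 nM replicate 5, and 12 without vehicle replicate 4 or 5, 0.06 nM replicate 3, or 0.1 nM replicate 3 or 5. Over all spans, 2092 to 3720 were called wider under these settings, against 5534 in the main fit. The number of summit calls was 11 without vehicle replicate 3, where 3679 of 82419 spans were called with more summits and 98 with fewer. Dividing widths by each library's median span width left 8 wider members and 1 narrower, against 3569 and 135 of 112546 spans.

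By single dose, 5 members ranked higher at 0.03 nM (background 2.52%), 9 at 0.06 nM (6.18%) and 12 at 0.1 nM (10.3%). Lower ranks were called at 0, 2 and 2 members, against 0.0968%, 0.443% and 2.51% of all spans. In either direction the background was 2.62%, 6.63% and 12.8%. Members had median ranks of 91.3, 91.7 and 90.2 with vehicle. The part of these high vehicle ranks in the number of higher calls was not tested. At 0.03 nM, 20 of 447 members had an unadjusted p under 0.05 in either direction, against 11790 of 112546 spans. By fold enrichment, 1 member was called higher and 12 lower at 0.1 nM. With entries of a −log10 q of at least 5 it was 24 and 0 there, and 18 and 0 at 0.06 nM, where 9012 and 9 of 96056 spans were called. At 0.03 nM no call was left without 0.03 nM replicate 3 or 4, at 0.06 nM 4 and 3 were left without 0.06 nM replicates 3 and 4, and at 0.1 nM 9 without 0.1 nM replicate 3. Without replicate 5 of every group, 19 members ranked higher and 13 lower at 0.1 nM. Counts without a share over all spans beside them describe the members and do not set them apart.

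The width calls lay among members that were narrow without androgen. Of the 113 members broad in no vehicle library, 15 were called wider. Of the 89 broad in 1 it was 4, and of the 245 broad in 2 or 3 it was 0. Of the members without a start site, 11 of 126 were called wider, and of those with one 6 of 300. For rank, higher calls were 9 of 126 and 2 of 300. Over all spans, wide or not and with a start site or not, 4.92% were called wider and 7.7% higher by rank. All spans were not split by start site or vehicle width, and class and width share the vehicle libraries, so these counts are a description and show nothing particular to members. Calls by rank and by width shared 4 members: MAGI1, TNK2, GRHL2 and ACP4.

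A class of 34 members was narrower than 1300 bp in every vehicle library, a limit set after the widths were seen. A start site lay in 5 of its 31 members outside chromosome 8 (16.1%), and its members had a mean of 4.18 summits in 10 nM replicate 3. Its median width was 858, 970 and 783 bp with vehicle. The medians were 1208, 1027 and 1102 bp at 0.03 nM, 1364, 1578 and 2078 bp at 0.06 nM, 1509, 1478 and 2128 bp at 0.1 nM, and 2277, 2448 and 2430 bp at 10 nM. The choice of this class fixes its low vehicle widths and its high widths in every LNCaP 10 nM library, so the order against vehicle is a description. In VCaP the same regions had median widths of 990, 392 and 761 bp with vehicle and 1474, 991 and 1618 bp at 10 nM.

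TNK2, a tyrosine kinase that phosphorylates the androgen receptor, lay in the clearest example (chr3:195906061-195908407). The widest peak in this region was 724, 707 and 719 bp wide with vehicle and 1456, 1517 and 1532 bp at 0.03 nM. It was 2559, 2479 and 2583 bp wide at 0.06 nM, and 2463, 2515 and 2633 bp at 0.1 nM. At 10 nM it was 2347, 2668 and 2556 bp, and no low-dose library overlapped vehicle. Width at low doses exceeded vehicle by 1.45 ± 0.05 (SE) on the log2(width + 100) scale (limma adjusted p = 3.65e-07), and rank by 16.5 ± 2.7 points (adjusted p = 0.00122). Summits were 3, 3 and 4 with vehicle and 4, 3 and 3 at 0.06 nM. VCaP peaks were 2334, 1412 and 1696 bp wide with vehicle and 2497, 1584 and 2549 bp at 10 nM, and did not pass the test (limma adjusted p = 0.785).

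GRHL2, an epithelial transcription factor gene, carried a member (chr8:101504170-101506184) that was 782, 891 and 850 bp wide with vehicle and 839, 1130 and 1162 bp at 0.03 nM. It reached 2075, 2007 and 2089 bp at 0.06 nM and 2040, 2063 and 2252 bp at 0.1 nM, close to 2015, 2076 and 2096 bp at 10 nM. The step lay between 0.03 and 0.06 nM, and the first of the 0.03 nM libraries fell within the vehicle range. Width rose by 0.90 ± 0.09 (SE, log2 scale; limma adjusted p = 0.000258). Its rank call (16.3 ± 4.0 points, limma adjusted p = 0.0204) was lost without vehicle replicate 3 (0.125) or 4 (0.0926).

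CTBP1, which encodes a transcriptional corepressor, carried 2 members, and with LOC124900164 3 members lay within chr4:1200423-1231961. No start site lay in either CTBP1 region. The first (chr4:1221815-1224926) was 257, 543 and 0 bp wide with vehicle, 1069, 1539 and 736 bp at 0.03 nM, 2683, 3041 and 2901 bp at 0.06 nM, and 2983, 3132 and 1538 bp at 0.1 nM. The second (chr4:1228793-1231961) was 425, 392 and 0 bp with vehicle and 2528, 1504 and 1899 bp at 0.06 nM. All low-dose libraries lay above vehicle at both. Width rose by 2.86 ± 0.45 and 2.43 ± 0.45 (SE, log2 scale; limma adjusted p = 0.00523 and 0.0149). The region at LOC124900164 was 979, 1228 and 0 bp wide with vehicle and did not pass (limma adjusted p = 0.369).

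The TMPRSS2 locus held 3 members within chr21:41459265-41522009. One beside MX1, an interferon-induced GTPase gene, lay 2.2 kb beyond TMPRSS2 (chr21:41459265-41462105). It was 769, 620 and 390 bp wide with vehicle, 1042, 998 and 784 bp at 0.03 nM, 2258, 1726 and 1485 bp at 0.06 nM, 2200, 2468 and 1768 bp at 0.1 nM, and 2841, 4113 and 2830 bp at 10 nM. In VCaP it was 1001, 411 and 816 bp wide with vehicle and 1717, 1999 and 2343 bp at 10 nM, without overlap. In LNCaP, width rose by 1.28 ± 0.18 (SE, log2 scale; limma adjusted p = 0.00237) while rank differed by −1.01 ± 2.81 points (adjusted p = 0.885). The VCaP width difference of 1.39 ± 0.31 (limma adjusted p = 0.0207) was lost without any of 4 libraries, to at most 0.131 without 10 nM replicate 4. The region 11.8 kb from TMPRSS2 on the other side was 1435, 691 and 798 bp wide with vehicle and 1884, 1885 and 1876 bp at 0.06 nM (limma adjusted p = 0.0753 over the low doses). The member over the 5′ end, broad in every library, differed by −0.01 ± 0.08 (SE, log2 width; limma adjusted p = 0.974).

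RYR3, a calcium release channel gene, carried a member (chr15:33500866-33503222) called in both lines. In LNCaP it was 629, 605 and 207 bp wide with vehicle, 1527, 738 and 1251 bp at 0.03 nM, 1440, 1710 and 1867 bp at 0.06 nM, and 2357, 2331 and 2248 bp at 10 nM. Low-dose width rose by 1.53 ± 0.27 (SE, log2 scale; limma adjusted p = 0.0114). In VCaP it was 0, 0 and 283 bp with vehicle and 2308, 913 and 2077 bp at 10 nM, and its rank rose by 52.8 ± 12 points (limma adjusted p = 0.00657). The VCaP width call (limma adjusted p = 0.0241) was lost without any of 6 libraries, to at most 0.155 without 10 nM replicate 1.

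ACP4, an acid phosphatase gene, carried a member (chr19:50793572-50795620) that lies 59.3 kb from KLK3 and 77.8 kb from KLK2, the kallikrein genes best known as androgen receptor targets. It was 1393, 1160 and 1083 bp wide with vehicle, 2028, 1553 and 1902 bp at 0.03 nM, 2051, 2028 and 2553 bp at 0.06 nM, and 2049, 2242 and 2230 bp at 10 nM. Its rank was 75.1, 72.6 and 70.8 with vehicle and 93.3, 92.4 and 88.1 at 0.06 nM. Rank rose by 16.7 ± 1.9 points (SE; limma adjusted p = 5.88e-05) and width by 0.71 ± 0.12 on the log2 scale (adjusted p = 0.00701). VCaP spans there were wider, at 2163, 2079 and 3878 bp with vehicle and 5494, 5406 and 4428 bp at 10 nM (limma adjusted p = 0.14 for width).

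**Figure D4:**
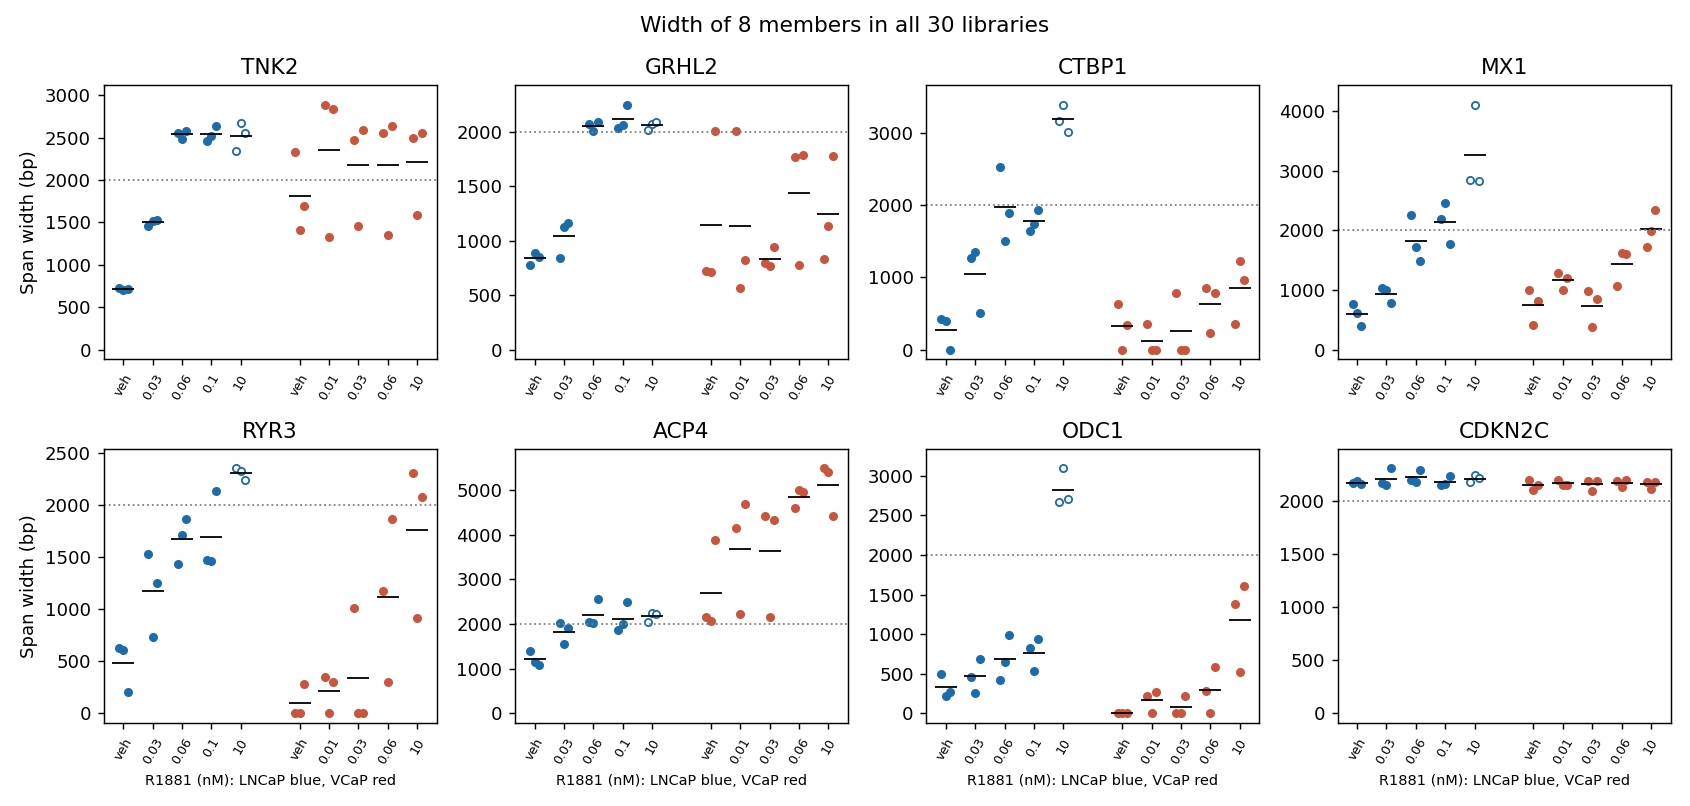
Width in bp (y axis) of 8 members in all 30 libraries, by dose of R1881 (x axis, nM; veh is vehicle), in LNCaP (blue) and VCaP (red); points are libraries, bars the mean of 3, open points the LNCaP 10 nM libraries that chose the members, and the dotted line 2000 bp. The CTBP1 panel is the region that starts at 1228793. TNK2 and GRHL2 lie above 2000 bp from 0.06 nM on in LNCaP, ODC1 stays under 1000 bp at every low dose, and CDKN2C stays between 2095 and 2312 bp throughout.

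Members whose width came with 10 nM alone were few: 8 were broad in no LNCaP library outside 10 nM. The region 71 bp from ODC1 (chr2:10437228-10439897), the first enzyme of polyamine synthesis, was 498, 215 and 266 bp wide with vehicle, 831, 534 and 939 bp at 0.1 nM, and 2670, 3098 and 2712 bp at 10 nM. It did not pass the low-dose tests. The region at PEX10 and RER1 (chr1:2401893-2404461) was 0, 485 and 0 bp wide with vehicle and 2569, 2106 and 2710 bp at 10 nM, with ranks of 36.9, 21.7 and 26.1, so wide peaks here were weak ones.

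FKBP5, a chaperone of steroid receptors, carried 2 members. The one whose nearest start site lay at 141 bp (chr6:35725744-35728442) was 1771, 1690 and 1565 bp wide with vehicle, 1811, 1771 and 1882 bp at 0.1 nM, and 2699, 2742 and 2744 bp at 10 nM. Its rank was 92.8, 93.0 and 92.1 with vehicle and 95.7, 96.0 and 95.7 at 0.1 nM, and rose by 3.26 ± 0.67 points over the low doses (SE; limma adjusted p = 0.00645). By fold enrichment that rank difference was −4.65. In VCaP it was 1807, 1581 and 1966 bp wide with vehicle and 2728, 2465 and 2777 bp at 10 nM, and the groups did not overlap (log2 width 0.55 ± 0.13, SE; limma adjusted p = 0.0317). That call was lost without any of 6 libraries, to at most 0.159 without 10 nM replicate 1. The intronic FKBP5 member (chr6:35601055-35603736) was 908, 1062 and 1052 bp wide with vehicle and 2682, 2772 and 2683 bp at 10 nM.

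Other members ranked higher at low doses. MAGI1, a junction scaffold, rose by 40.6 ± 8.1 points (SE; limma adjusted p = 0.00532), from ranks of 53.1, 32.0 and 0 with vehicle to 71.4, 74.0 and 72.1 at 0.1 nM. ALG8, a glycosylation enzyme, rose by 19.3 ± 3.8 points (limma adjusted p = 0.00457), and MYCBP2, a ubiquitin ligase, by 12.3 ± 2.0 (0.00109). Regions with no protein-coding gene within 100 kb rose by 11.9 ± 1.9 points at chr5:58077018-58079297 (limma adjusted p = 0.000844) and by 15 ± 2.8 at chr15:20642455-20644510 (0.00305). NT5DC1, a nucleotidase family gene, rose by 9.42 ± 2.21 points (limma adjusted p = 0.0148), a call lost without vehicle replicate 5 (0.0794). The falls were at LRRN1, a leucine-rich repeat protein, by −5.73 ± 1.23 (limma adjusted p = 0.00858), and at a member that holds the start of LINC02724 and is nearest to RPS6KA4 among protein-coding genes, by −6.33 ± 1.5 (0.0159). The LRRN1 call was lost without vehicle replicate 5 (0.0534). The call at the LINC02724 start was lost without vehicle replicate 5 (0.0789) or 4 (0.0583). Of the 14 rank calls, 8 held without any 1 library, and of the 20 width calls 7 did: TNK2, both CTBP1 regions, GRHL2, RYR3, ACP4 and MX1. With a whole replicate number left out, only the width calls at TNK2 and GRHL2 held each time. The limma adjusted p then reached 0.148 and 0.132 at CTBP1, 0.146 at RYR3, 0.0993 at ACP4 and 0.0988 at MX1. By rank, only the calls at ACP4 and chr5:58077018-58079297 held each time.

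The members were listed in VCaP almost as often as in LNCaP. A peak was present in all 15 VCaP libraries at 416 members and in none at 2. Members of 2000 bp or more numbered 240, 101 and 255 with vehicle, 303, 198 and 304 at 0.06 nM, and 325, 215 and 309 at 10 nM, with replicate 2 the lowest in every group. At 10 nM, 195 members were broad in all 3 libraries and 95 in none.

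VCaP took no part in choosing the members, so 10 nM was tested there. By limma over 79380 spans, 6 of 442 members ranked higher at 10 nM than with vehicle (1.36%, against 9.42% of all spans) and 10 lower (2.26%, against 3.54%, or 13% in either direction). The members' median ranks with vehicle were 86.1, 85.7 and 86.7, against 0 over the whole list. The part of these vehicle ranks in the shares called was not tested, here or in the other VCaP rank tests. Wider peaks were called at 8 (1.81%, against 4.02%) and narrower at 0, against 0.292% (4.31% in either direction). More summits were called at 4 of 441 (0.907%, against 1.32%) and fewer at 0, against 0.0608% (1.38% in either direction). The 4 were RYR3, FLCN, NNMT and CDC42BPB. With all deposited peaks 11 members ranked higher and 5 lower, with entries of a −log10 q of at least 5 it was 1 and 0, and by fold enrichment 2 and 4. Shares over all spans are not given for these settings or for the leave-outs below, so these counts do not set members apart. Without vehicle replicate 1 there were 3 and 3, without vehicle replicate 2 there were 4 and 3, and without both none. Without 10 nM replicate 1, 2 or 4, the rank calls numbered 6, 9 and 7. The width calls numbered 0 without vehicle replicate 2 or 10 nM replicate 1 or 4, and 1 without 10 nM replicate 2. The summit calls numbered 1 to 3 without any 1 library. Vehicle replicates 1 and 2 had the lowest background pileups, and the part of depth in the calls was not tested.

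In VCaP, 4 rank calls held without any 1 library: the rise at RYR3 and falls at VPS26B, KANK1 and SLC25A37. Each of these was lost when replicate number 1 was left out of every group. The limma adjusted p was then 0.161 at RYR3, 0.066 at VPS26B, 0.132 at KANK1 and 0.0967 at SLC25A37. VPS26B fell by 12.5 points ± 2.4 (SE; limma adjusted p = 0.00173), from ranks of 98.6, 95.7 and 95.1 with vehicle to 82.4, 82.5 and 86.9 at 10 nM, without overlap. KANK1, an actin regulator, ranked 89.2, 90.4 and 83.4 with vehicle and 77.7, 74.2 and 72.7 at 10 nM (limma adjusted p = 0.00845). SLC25A37, a mitochondrial iron importer, ranked 93.1, 93.2 and 91.2 and then 83.8, 79.7 and 85.0 (limma adjusted p = 0.00441). Widths at these 3 did not pass the test in VCaP. The other rises were at ELF2, an ETS factor, NECTIN1, a cell adhesion protein, ZNF592, a zinc finger protein, RFFL, a ubiquitin ligase, and a region with no protein-coding gene within 100 kb, and each was lost without 3 to 12 of the 15 libraries. At ELF2 the ranks were 86.8, 93.3 and 92.4 with vehicle and 96.9, 97.1 and 97.5 at 10 nM, and the rise of 6.3 ± 1.86 points (SE; limma adjusted p = 0.0317) was lost without vehicle replicate 1 (0.146). RIMS1, a presynaptic scaffold gene, ranked 51.0, 58.7 and 56.9 with vehicle and 0, 27.3 and 0.777 at 10 nM, a fall (limma adjusted p = 0.0367) lost without 10 nM replicate 1 (0.151).

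No member was called at low doses in VCaP by limma (0 of 442 higher or lower, against 0.979% and 0.227% of all spans, or 1.21% in either direction). An unadjusted p under 0.05 was found at 39 of 442 members, against 9035 of 79380 spans. With all deposited peaks 6 were called higher, with the replicate block 3, and without vehicle replicate 4 it was 7 in either direction. For these settings and the leave-outs below, shares over all spans are not given, so the counts do not set members apart. Between 10 nM and low doses, 2 members ranked higher (background 5.73%) and 4 lower (1.62%, or 7.35% in either direction), and without 10 nM replicate 4 it was 0 and 3. The difference between the lines in the change at 0.03 and 0.06 nM was called at 2 members, TNK2 and ACP4, against 0.649% of all spans, and lower at 0, against 0.159% (0.807% in either direction). Neither call held without every single library: both were lost without LNCaP vehicle replicate 5 (0.0804 and 0.146).

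Some members lay near genes of named programmes. Over all 19974 protein-coding genes, 424 were nearest to a member, and the shares in the lists below were not tested against this. Of 54 androgen-induced genes, 8 were nearest to a member (among them ERRFI1, FKBP5, INPP4B, SLC43A1, TMPRSS2, UAP1 and ZBTB10), with 11 members, of which 1 ranked higher at low doses (against 7.7% of all spans) and 0 were called wider (against 4.92%). Their median log2 width difference was 0.30, against 0.20 over all spans, and their median rank difference 0.17 points, against 0.63. Of 30 luminal transcription factor genes it was 5 (among them CEBPB, GRHL2, NFIB and TFAP2A), with GRHL2 called by rank and width. Of 18 androgen-repressed genes it was PEG3, of 28 cell cycle genes CDKN2C and GADD45G, of 20 lipid genes 2, among them FADS2, of 20 coregulator genes CHD1, and of 10 polyamine genes ODC1. Of 18 housekeeping genes it was EEF1A1 and YWHAZ, of 10 luminal markers FOLH1 and TMPRSS2, and of 7 stromal markers ACTA2, whose member also holds the FAS start. None of the 6 basal, 6 immune or 7 neuroendocrine markers was nearest to a member.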

How the data were processed

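ATAC-seq peak lists of 30 libraries were analysed. Per the submitters' processing notes, the tools were MACS2 2.2.7.1, BWA 0.7.17, deepTools 3.5.1 and Trimmomatic 0.39, and the build was GRCh38. Per the deposited lists, each entry has a score, a ratio (fold enrichment at the summit over background), a −log10 p and a −log10 q. How replicates were handled before peak calling is not given in the sources used here. A region absent from a deposited list may still hold signal below the cutoff used by the authors.

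Widths and summits are printed as deposited. Tests and ranks used lists shortened to the shortest of the line (134750 entries in LNCaP, 104726 in VCaP). A span's value in a library is that of the widest or strongest peak overlapping it by at least 1 bp. limma 3.58.1 in R 4.3.3, with trend and robust variance, was fitted over all spans with a peak in at least 3 libraries, on ranks, log2(width + 100) or log2(summits + 1). Tests were two-sided, and calls had a Benjamini-Hochberg adjusted p under 0.05. The line difference used 27 libraries. The fit was run on simulated data with independent normal noise, without a replicate effect or a limit on rank. Of 100 members each, it recovered 67% at a rank change of 10 points and 79% at 20. For log2 width it recovered 36% at a change of 0.5 and 65% at 1, so many real changes of such size may be missed.

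Members carry the name of the protein-coding gene closest to them, up to 100 kb away, from RefSeq positions, and a nearest gene is not shown to be regulated. Start sites covered 79.2% of protein-coding genes. By the rule for names, these are the widest with and without a vehicle peak, the largest called changes, and the widest per gene list. Further members were chosen after their values were seen. The members and lists were chosen with earlier results of these data known. Results at 2 genes are not reported here.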

Additional observations from a re-analysis of the deposited data

Results flagged for a closer look

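Of the members, 2 changed differently in the lines at 0.03 and 0.06 nM R1881, by limma's test of that difference. At TNK2 (chr3:195906061-195908407) the rank change in LNCaP exceeded that in VCaP by 20.5 ± 4.4 points (SE, adjusted p = 0.0218). The call was lost without LNCaP vehicle replicate 5 (0.0804) or VCaP vehicle replicate 2 (0.0736). At ACP4 (chr19:50793572-50795620) the excess was 10.1 ± 2.4 points (adjusted p = 0.0449), and 14 of the 18 libraries each ended the call when left out, to at most 0.146 without LNCaP vehicle replicate 5. VCaP ranks with vehicle were 82.0, 86.1 and 78.5 at TNK2 and 88.5, 90.1 and 90.4 at ACP4, above the LNCaP vehicle ranks of 62.8 to 71.9 and 70.8 to 75.1. With ranks by fold enrichment neither difference was called.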

How the results depend on the processing

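The number of members was 2838 at a width of 1500 bp, 78 at 2500 bp and 10 at 3000 bp. Counts below are members called in either direction. Calls over all spans moved with the settings as well, so a change in these counts shows nothing particular to members. The replicate number as a block gave 24 for LNCaP low-dose rank, 11 for summits, 8 at 0.03 nM and 35 at 0.1 nM, and 28 for VCaP 10 nM rank, 21 for width, 10 for summits, 3 for VCaP low doses and 12 for 10 nM against low doses. The numbers did not pair the libraries by the rule used, since 3 of 18 LNCaP and 3 of 30 VCaP pairs correlated at or under 0.1. Even so, 12 of 12 and 15 of 15 libraries correlated best with their own number. The main fits held no term for the replicate number, so their p-values do not account for differences shared by libraries of 1 number. Ranks by fold enrichment gave 3 for LNCaP low doses, 0 at 0.03 nM, 0 at 0.06 nM, 6 for VCaP 10 nM and 0 for the line difference, and turned LPAR3 to −2.16, GALNT7 to −0.41 and FKBP5 to −4.65 points. Entries of a −log10 q of at least 5 gave 13 for LNCaP summits, 0 at 0.03 nM, 18 at 0.06 nM and 24 at 0.1 nM, and in VCaP 1 for rank, 5 for width, 0 for summits, 0 for 10 nM against low doses, and 0 for the line difference. Scaled widths gave 9, and covered length, an alternative chosen after seeing the data, 31. Summits per kb gave 0 in LNCaP and 0 in VCaP. With only the groups compared, counts were 0 at 0.03 nM, 5 at 0.06 nM, 9 at 0.1 nM, 7 for VCaP 10 nM rank, 9 for summits and 0 for the line difference. A peak in at least 8 libraries gave 0 for VCaP width, 1 for summits and 1 for the line difference. All deposited peaks gave 2 for VCaP summits and 6 for VCaP low doses, and an overlap of 250 bp gave 1 for VCaP summits. Without VCaP vehicle replicates 1 and 2 together, VCaP 10 nM rank, width and summits gave 0, 0 and 0. Leaving out each library or replicate number gave 3 to 20 for LNCaP low-dose rank, 8 to 19 for width, 4 to 14 for summits, 0 to 10 at 0.03 nM, 1 to 13 at 0.06 nM and 3 to 32 at 0.1 nM. In VCaP it gave 0 to 22 for 10 nM rank, 0 to 11 for width, 1 to 5 for summits, 0 to 7 for low doses and 0 to 8 for 10 nM against low doses, and 0 to 2 for the line difference. The cause was not tested. Reads per library are unknown, so depth limits which weak peaks are listed.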
